A study of Mus musculus with 3 samples.

Results

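The pancreatic exocrine and islet genes described here are 10 named genes out of 20577 named genes measured on the arrays. The 7 acinar members encode enzymes of the digestive granules: the lipases Pnlip and Cel and the proteases Ctrb1, Cpa1, Cela1, Try4 and Try5. The 3 islet members encode hormones, namely insulin (Ins1 and Ins2) and glucagon (Gcg). Members were chosen by name with their readings on the hepatocyte array known, so their differences between primary hepatocytes and the other cells are descriptions. Each has 1 probe on the array, and the Gcg probe is printed in 10 spots.

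RNA was measured on 3 single-colour microarrays, 1 per group, and each group was a pool of 5 samples from female mice. MF were primary fibroblasts from spleens of mice remodelled with silica (SiO2), given the control lentivirus LV-NC. iHep were hepatocyte-like cells made from such fibroblasts with the lentivirus LV-3TF, which carries 3 transcription factors that the labels do not name; both were collected 14 days after transduction. PH were freshly isolated primary mouse hepatocytes, used by the study as a positive control, and they were not cultured or transduced. With 1 array per group, no test was possible, and no value has an error between samples: precision is limited by there being 3 arrays.

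Acinar cells fill most of the pancreas and release digestive enzymes, several of them as inactive precursors that trypsin activates in the gut. Islets of Langerhans are small clusters of endocrine cells scattered in the same organ, in which beta cells make insulin and alpha cells make glucagon. Acinar enzyme genes are driven by the PTF1 complex, in which the factor PTF1A binds an E-box and its partner RBPJL binds a nearby TC-box. Neither the enzymes nor the hormones are known as main products of hepatocytes or fibroblasts.

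Promoters of members were read for these motifs because acinar members stood high together on the PH array. RefSeq promoter sequences of build GRCm38.p6 were matched for 8 of the 10 members, and the 250 bases before the start of each gene were searched on both strands. The E-box was spelled CANNTG and the TC-box TTTCCC, and a pair was counted where at most 30 bases lay between an E-box and a TC-box without overlap. Of 32851 promoters of this length 5.34% held a pair, 66.2% an E-box and 21.9% a TC-box. A pair was present in 4 of 6 acinar promoters and in 0 of 2 islet promoters. The 4 acinar windows with a pair and that of Ins1, as the islet contrast, are shown 5′ to 3′ on the strand of the gene, with E-boxes and TC-boxes (either strand) in capitals.
Ctrb1: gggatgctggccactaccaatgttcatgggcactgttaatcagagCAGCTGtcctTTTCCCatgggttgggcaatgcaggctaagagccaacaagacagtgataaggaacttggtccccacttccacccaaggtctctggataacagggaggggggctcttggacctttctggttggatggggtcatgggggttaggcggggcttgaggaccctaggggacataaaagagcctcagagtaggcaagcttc
Cela1: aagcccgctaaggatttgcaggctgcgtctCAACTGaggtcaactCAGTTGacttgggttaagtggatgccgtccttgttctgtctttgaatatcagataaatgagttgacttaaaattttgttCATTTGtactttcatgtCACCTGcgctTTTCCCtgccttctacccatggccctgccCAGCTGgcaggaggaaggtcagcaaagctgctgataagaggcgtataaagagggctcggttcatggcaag
Cpa1: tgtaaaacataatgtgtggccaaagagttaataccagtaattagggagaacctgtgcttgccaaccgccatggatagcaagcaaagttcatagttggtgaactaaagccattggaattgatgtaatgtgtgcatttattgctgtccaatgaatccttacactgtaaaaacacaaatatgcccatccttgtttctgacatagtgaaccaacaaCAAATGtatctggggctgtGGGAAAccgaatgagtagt
Cel: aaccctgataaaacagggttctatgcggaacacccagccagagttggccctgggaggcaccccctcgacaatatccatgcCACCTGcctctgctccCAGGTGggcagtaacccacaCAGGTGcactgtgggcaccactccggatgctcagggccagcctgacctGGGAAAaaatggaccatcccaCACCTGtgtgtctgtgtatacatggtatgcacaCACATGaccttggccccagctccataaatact
Ins1: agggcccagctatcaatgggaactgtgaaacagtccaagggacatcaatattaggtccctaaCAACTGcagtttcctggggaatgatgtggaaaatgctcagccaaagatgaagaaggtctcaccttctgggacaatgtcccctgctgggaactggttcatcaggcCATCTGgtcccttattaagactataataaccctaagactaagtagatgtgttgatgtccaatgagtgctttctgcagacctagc
These windows lie at chr8:111691011-111691260 (minus strand), chr15:100687921-100688170 (minus), chr6:30638968-30639217 (plus), chr2:28563404-28563653 (minus) and chr19:52264047-52264296 (plus). In Ctrb1 and in Cela1 4 bases separate the nearest E-box and TC-box, in Cpa1 13 bases and in Cel 15 bases. The Pnlip and Try4 windows held no pair, and Pnlip held neither motif alone. The letters TATAAA stood in 3 of 6 acinar and 1 of 2 islet windows, against 12.4% of all promoters, and CTAATG, the core of the insulin A-box, in none of the 8 windows and in 6.36% of all. A match of letters is a description of the window, not a binding site.

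Levels are log2 intensities relative to the 75th percentile of the same array, which is level 0 and stood at 544.3 intensity units on MF, 3752 on iHep and 2081 on PH. They are compared between arrays for 1 probe, never between probes. A probe was called well above background by the scanner software, and where 1 side of a comparison was not, the difference is a lower bound ("at least"), taken against the dim reading or, if higher, that array's lowest level among probes above background. The arrays of iHep and PH came from the same scan and MF from another, so differences against MF cannot be told apart from the scan. Replicate spots gave a log2 difference an SD of 0.14 to 0.15, while different probes of the same gene disagreed with a pooled SD of 1.11 for PH over MF, 0.84 for iHep over MF and 1.09 for PH over iHep. All 10 members were well above background in PH, 9 in iHep and 5 in MF, against 84.5%, 79.5% and 72.9% of all named genes.

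Labels were checked with marker genes. All 10 fibroblast markers were above background in MF. At least 2-fold lower than in MF were 8 of them in PH and all 10 in iHep, against 25.8% and 24.7% of all genes. The other 2, Dcn and Lum, were 2.07-fold and 27.6-fold higher in PH than in MF. Above background were all 10 fibroblast markers in PH and 9 in iHep. In PH over iHep 6 of the 10 were higher and 2 lower, beside 36.1% and 23.4% of all genes. All 10 hepatocyte markers, albumin among them, were above background in PH, where they summed to 1266820 intensity units against 10582 in iHep and 166.8 in MF, not scaled between arrays. Of them 7 were above background in iHep and 5 in MF, beside 79.5% and 72.9% of all genes. In iHep over MF 2 of the 10 passed 2-fold upwards, against 21% of all genes. They were Hnf4a at 101-fold, with 7726 of the summed units in iHep, and Cyp3a11 at 32.6-fold or more, while albumin (Alb) differed by 1.37-fold. Transcripts of the virus were not separated from those of the cell. Markers of other cell types were read in PH as well: 7 of 7 macrophage, 6 of 6 endothelial, 6 of 6 duct and 5 of 5 blood cell markers were above background there, as were 5 of 6 stomach and 3 of 5 intestine markers, beside the 84.5% of all genes. In MF 6 macrophage, 5 endothelial, 5 duct and 4 blood cell markers were above background too, and in iHep 4, 4, 6 and 4. Of the stomach and intestine markers 3 and 2 were above background in MF, and 4 and 4 in iHep. In PH over iHep 6 macrophage, 6 endothelial, 5 blood cell, 0 duct, 1 stomach and 1 intestine markers were at least 2-fold higher. Lower there were 3 duct and 1 intestine markers, beside 36.1% of all genes higher and 23.4% lower. In PH over MF 2 macrophage, 5 endothelial, 3 blood cell and 2 duct markers were higher, and 3 duct and 1 blood cell markers lower. All 13 acinar cell markers, of which 5 are members, were above background in PH as well. Their summed intensity, not scaled between arrays, was 977589 against 3758 in iHep and 349.5 in MF. In iHep over MF 2 of the 13 were at least 2-fold higher and 0 lower, beside 21% and 24.7% of all genes. The part of other cells in the PH pool was not tested, and in pooled RNA fewer cells of a type and less RNA per cell cannot be told apart.

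**Figure D1:**
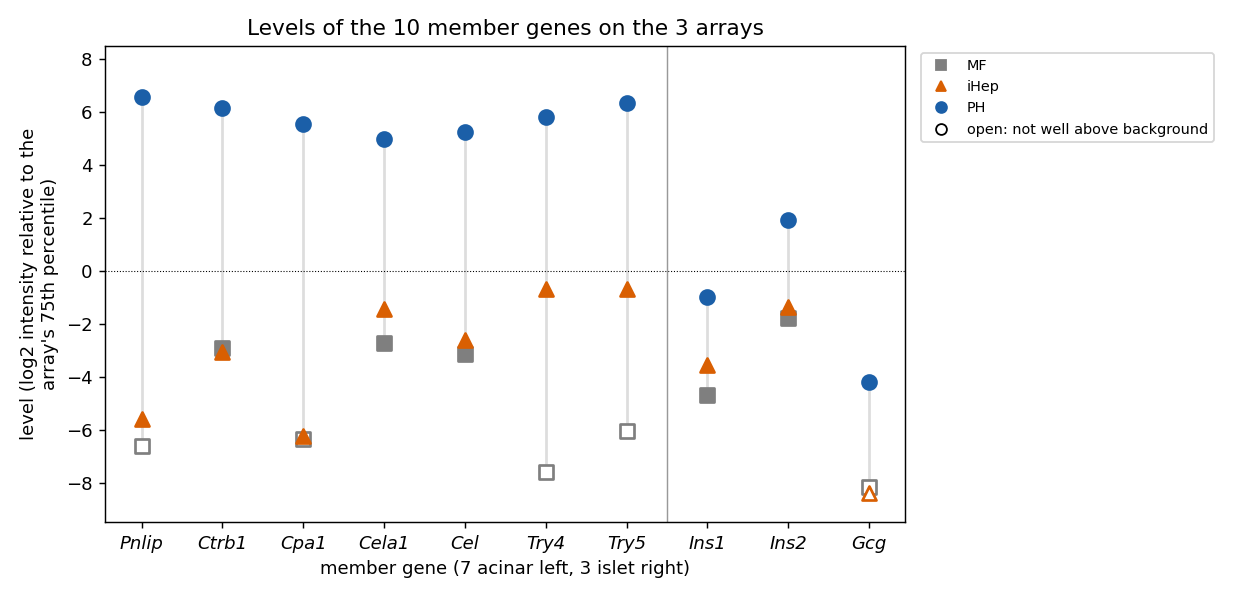
Level of each member (log2 intensity relative to the array's 75th percentile) on the MF, iHep and PH arrays, 1 array each; open symbols were not well above background. PH is the highest array for all 10 members, and Try4 and Try5 are the members whose iHep levels, -0.69 and -0.68, lie farthest from MF.

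Of the lipases, Pnlip had the highest difference or bound of any member in PH over MF and in PH over iHep. Pnlip, the main triglyceride lipase of pancreatic juice, read 5.50 intensity units in MF, where it was not above background, 76.8 in iHep and 195813 in PH, or levels of -6.63, -5.61 and 6.56. The PH array thus stood far from both others, at least 7436-fold above MF and 4598-fold above iHep, whereas iHep over MF is bounded only at 1.62-fold. Under normexp background correction, which with its offset of 50 raises dim readings, the log2 difference of PH over MF was 9.90 in place of 12.86. Among 17408 genes compared, with bounds counted at their bound, Pnlip ranked 1 in PH over MF. Cel, the bile salt-activated lipase, was above background on every array, at 62.1 in MF, 615.4 in iHep and 79507 in PH. Its levels of -3.13 and -2.61 in MF and iHep differed by 0.52, less than probes of the same gene disagree, and PH stood 335-fold above MF and 233-fold above iHep.

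The proteases followed the same order, with PH first. Ctrb1, chymotrypsinogen, read 72.4 in MF, 447.3 in iHep and 147205 in PH. Scaled to each array, its MF and iHep levels of -2.91 and -3.07 were within 0.16 of each other, and PH was 532-fold and 593-fold above them. Cpa1, the precursor of carboxypeptidase A1, read 6.66 in MF, not above background, 49.8 in iHep and 96309 in PH. Its iHep level of -6.23 lay at the MF reading of -6.35, and PH was at least 3657-fold above MF and 3483-fold above iHep; under normexp these log2 differences were 8.82 and 10.63 in place of 11.84 and 11.77. Cela1, a pancreatic elastase, read 82.4, 1380 and 65119 in MF, iHep and PH, at levels of -2.72, -1.44 and 4.97. For Cela1 iHep was 2.43-fold above MF and PH 85.1-fold above iHep. Under normexp the log2 difference of iHep over MF was 0.72 in place of 1.28, below 2-fold.

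Both trypsinogen members had a pattern of their own in iHep. Try4 read 2.79 in MF, 2324 in iHep and 116623 in PH, and Try5 8.27, 2337 and 169465; neither was above background in MF. In iHep they reached levels of -0.69 and -0.68, at least 49.0-fold and 41.0-fold above MF, yet PH was still 90.5-fold and 131-fold higher. These bounds against MF depend on how background is treated: under normexp with an offset of 50 the log2 differences of iHep over MF were 2.61 and 2.35 in place of 5.61 and 5.36, and those of PH over MF 9.14 and 9.24 in place of 12.11 and 12.39. Trypsin genes form a family of near-identical copies on mouse chromosome 6, the probe sequences were not used here, and how far the probes read each other's transcripts was not tested.

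The other 6 measured genes of that family, the precursors Prss1 and Prss2 and 4 related genes, read between 5.84 and 210.1 intensity units in iHep. Compared with MF, Prss2 was at least 3.31-fold higher, Gm5771 2.86-fold and Gm10334 2.74-fold, and Prss1 1.45-fold. In PH these 4 read 84018, 67012, 4261 and 43790. The bounds of Try4 and Try5 in iHep over MF were thus above any fold formed for the rest of the family, while PH was the brightest array for each of the 8 probes.

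**Figure D2:**
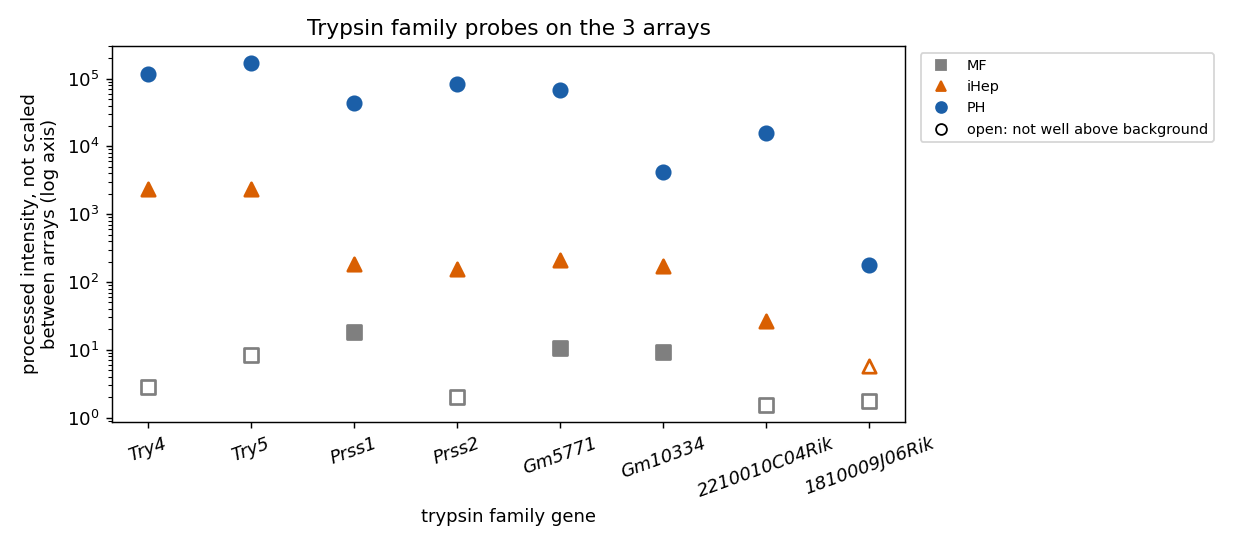
Processed intensity (log axis, not scaled between arrays) of 8 trypsin family probes on the 3 arrays; open symbols were not well above background. PH is the brightest array for each probe, and the gap between MF and iHep is widest for Try4 (2.79 and 2324) and Try5 (8.27 and 2337).

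Islet hormones also read highest in PH, with smaller measured differences for both insulins. Ins1 read 21.1 in MF, 320.0 in iHep and 1052 in PH, at levels of -4.69, -3.55 and -0.98, so that PH was 13.1-fold above MF and 5.93-fold above iHep. Ins2 read 157.4, 1448 and 7789, at levels of -1.79, -1.37 and 1.90, with PH 12.9-fold above MF and 9.70-fold above iHep. Both insulin genes were above background on all 3 arrays, the fibroblasts included, and how far either probe reads the transcript of the other copy was not tested. Between iHep and MF, Ins1 differed by 2.20-fold and Ins2 by 1.33-fold.

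Gcg, the glucagon precursor, was near the lower limit. Its 10 spots had a geometric mean of 1.89 intensity units in MF (1.38 to 2.64), 11.1 in iHep (5.45 to 25.0) and 113.0 in PH (99.9 to 139.5). In MF 0 of them were above background, in iHep 1 and in PH 10. These intensities are not scaled between arrays. The spots repeat 1 probe on 1 array per group, so their ranges give no spread between samples. PH was at least 4.29-fold above MF and at least 8.70-fold above iHep (on the log2 scale 3.12, against 2.01 under normexp and 1.81 in the authors' deposited table), and no fold was formed between iHep and MF, where neither was above background.

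Set side by side, the islet members followed the acinar members in direction, and the insulins were below them in size, while Gcg was bounded from below alone. In PH over MF all 10 members were at least 2-fold higher, where 31.4% of all genes compared were higher and 25.8% lower, and the members had been chosen on this contrast. The acinar median was 11.84 on the log2 scale and the islet median 3.69, with bounds counted at their bound, beside 0.08 for all genes. The lowest acinar difference, 7.69 for Cela1, lay above the measured islet differences, 3.71 for Ins1 and 3.69 for Ins2. Gcg has only a lower bound there, 2.10, which was 1.05 under quantile normalization, and differed by 3.97 as read.

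In PH over iHep, read in the same scan, all 10 members were again at least 2-fold higher, against 36.1% of all genes, while 23.4% of all genes and none of the members were lower. Medians were 7.86 for acinar members, from 6.41 to 12.17, and 3.12 for islet members, beside 0.31 for all 17808 genes compared. The islet value is the lower bound of Gcg, which lies between the measured 2.57 of Ins1 and 3.28 of Ins2; with Gcg as read, which is above both, the median is 3.28. Expressed as a share of PH after scaling, iHep carried between 0.0217% (Pnlip) and 1.18% (Cela1) of the acinar members' signal, 10.3% of Ins2 and 16.9% of Ins1. PH is the same array in both contrasts, so they are not independent of each other.

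In iHep over MF 4 of 9 members with a difference were at least 2-fold higher, namely Try4, Try5, Cela1 and Ins1, and none was lower. Of all 16196 genes compared 21% were higher and 24.7% lower. The medians were 0.69 for acinar and 0.78 for islet members, beside 0.02 for all genes, and bounds set 4 of the 7 acinar values. Cela1 and Ins1 exceeded MF by 1.28 and 1.14 on the log2 scale, little more than the disagreement between probes. Under normexp background correction the Cela1 difference was 0.72 and the Ins1 difference turned to -0.38.

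**Figure D3:**
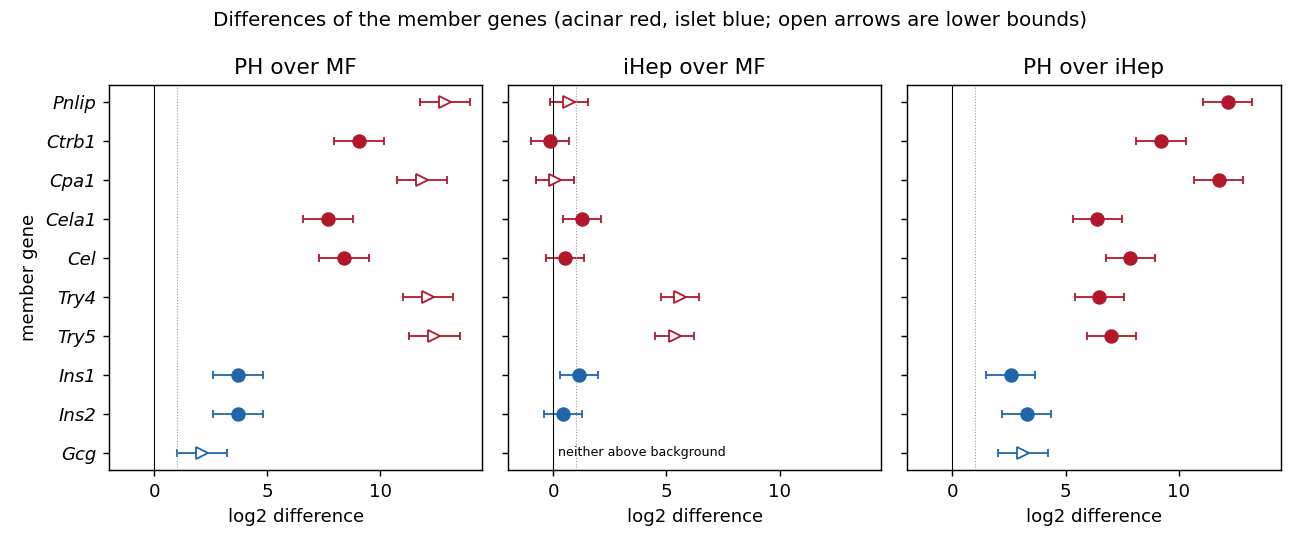
Log2 difference of each member in the 3 comparisons; open arrows are lower bounds, bars are the pooled SD between probes of a gene (0.84 to 1.11) and the dotted line is 2-fold. Acinar members (red) lie between 7.69 and 12.86 in PH over MF and islet members (blue) at 3.71, 3.69 and, for Gcg, a lower bound of 2.10.

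Beyond the members, the remaining exocrine genes stood high in PH as a body. Of 44 further acinar enzymes, granule and acinar surface proteins listed, 38 were measured, and all 38 were above background in PH, 26 in iHep and 14 in MF. In PH over iHep 38 of 38 were at least 2-fold higher, against 36.1% of all genes, with a median of 9.07 and a range from 2.61 to 13.23. In PH over MF 37 of 37 with a difference were higher, against 31.4% of all genes, with a median of 9.27. Taking members and list together, 40 of 45 acinar genes were at least 64-fold above iHep, as were 4.21% of all genes, and 41 of 44 were so above MF, as were 3.14%. In iHep over MF 0 of 27 differences or bounds reached that size, against 0.173% of all genes; a bound below it, such as that of Try4, sets no upper limit.

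The list covers each class of pancreatic enzyme. Cela3a, an elastase, read 126647 in PH and 23.8 in iHep, a 9611-fold difference. Its iHep level of -7.30 lay at the lowest level among probes above background on that array, -7.32, so this fold rests on a dim reading. Among lipid-digesting genes, the colipase Clps was 194-fold higher in PH than in iHep and the lipase-related Pnliprp1 at least 3373-fold. The carboxypeptidase Cpb1 was 2203-fold higher, and the pancreatic amylase gene Amy2a5 1216-fold.

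Granule and surface proteins stood with them. Gp2, the main glycoprotein of the zymogen granule membrane, was 2956-fold higher in PH than in iHep, Zg16 1168-fold and syncollin (Sycn) 489-fold. The secreted lectins Reg1 and Reg2, which rise in injured pancreas, were 4457-fold and 5914-fold higher, and Dmbt1, a secreted scavenger protein, at least 6667-fold. The folds of Gp2, Reg1 and Reg2 rest on dim iHep readings. Their iHep levels of -7.03, -6.78 and -7.06 lay near that array's lowest level above background, -7.32. Cckar, the receptor through which cholecystokinin stimulates secretion, was at least 134-fold higher. The smallest difference was that of Erp27, a protein of the endoplasmic reticulum, at 6.09-fold.

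In iHep over MF the same 38 genes gave 20 differences, of which 8 were at least 2-fold higher and 2 lower, a median of 0.64, beside 21% and 24.7% of all genes. Under normexp 0 were higher and 5 lower, and the median was -0.89. Pla2g1b, pancreatic phospholipase A2, was at least 3.38-fold higher. Cela3a was 13.7-fold lower, with its iHep reading at that array's lower limit. Where iHep was above background, the 33 acinar genes including members had a median of 0.204% of the PH signal, against 90.4% for all 15679 genes above background on both arrays.

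Transcription factors of the acinar cell were on the PH array too. Ptf1a read 1.72 in MF and 5.80 in iHep, not above background on either, and 526.7 in PH, at least 40.6-fold above iHep. Rbpjl, its acinar partner, read 19.0, 124.5 and 506.7, so that PH was 7.34-fold above iHep and iHep stood within 0.07 of MF on the log2 scale. Bhlha15 (MIST1), which builds the secretory apparatus, was 102-fold higher in PH than in iHep. Nr5a2, active in acinar cells and hepatocytes alike, was 62.0-fold higher.

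Factors of the pancreatic progenitor and duct differed. Pdx1, required for pancreas formation and for beta cells, read 41.9 in iHep and 54.2 in PH, 2.33-fold higher in PH after scaling. Foxa2 and Gata4, shared by liver and pancreas, were 30.5-fold and 4.10-fold higher in iHep than in MF (transcripts of the virus were not separated from those of the cell). Sox9, a duct and progenitor factor, was 3.02-fold lower in PH than in iHep. Over the 11 measured factors, 8 were higher and 1 lower in PH over iHep, with a median of 2.64, beside 36.1% and 23.4% of all genes. In iHep over MF 3 of 7 were higher and 0 lower, beside 21% and 24.7% of all genes.

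The other 5 islet hormones were read in the same way. Sst, somatostatin of delta cells, read 3.40 in MF, 99.9 in iHep and 209.2 in PH. Iapp, the amylin that beta cells release with insulin, was above background only in PH at 117.5 intensity units, as was Ppy, pancreatic polypeptide, at 92.5, so that their differences over iHep are bounds of at least 9.05-fold and 7.13-fold. Ghrl, ghrelin, read 400.2 in MF, 2080 in iHep and 51083 in PH, 44.3-fold above iHep. Of 8 hormones, members included, 8 were at least 2-fold higher in PH over iHep and 7 in PH over MF, where Pyy was the exception at 1.44-fold lower. The shares of all genes higher in these comparisons were 36.1% and 31.4%.

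Other islet genes were mixed. Chga, chromogranin A of endocrine granules, was 6.95-fold higher in PH than in iHep, G6pc2, the islet glucose-6-phosphatase, 16.0-fold and the endocrine factor Insm1 at least 24.3-fold. The zinc transporter Slc30a8 of insulin granules, the prohormone convertase Pcsk1 and the factors Neurod1 and Rfx6 were not well above background on any array. Mafa, a beta cell factor, lay at levels of 1.03, 1.30 and 1.18 in MF, iHep and PH. Scg5 was higher in iHep, at 3449 intensity units, than in PH at 96.6, and Scg2 was 919-fold lower in iHep than in MF.

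Of the 35 further islet genes 20 of 30 were at least 2-fold higher in PH over iHep and 3 lower, with a median of 1.98. Of all genes 36.1% were higher and 23.4% lower there. In PH over MF 16 of 28 were higher and 2 lower, beside 31.4% and 25.8% of all genes. Differences or bounds of at least 64-fold above iHep were found for 4 of 33 islet genes, members included, against 4.21% of all genes. Above MF they were found for 2 of 31, against 3.14%. Ttr and Slc2a2, which are also hepatocyte genes, were so in both comparisons.

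**Figure D4:**
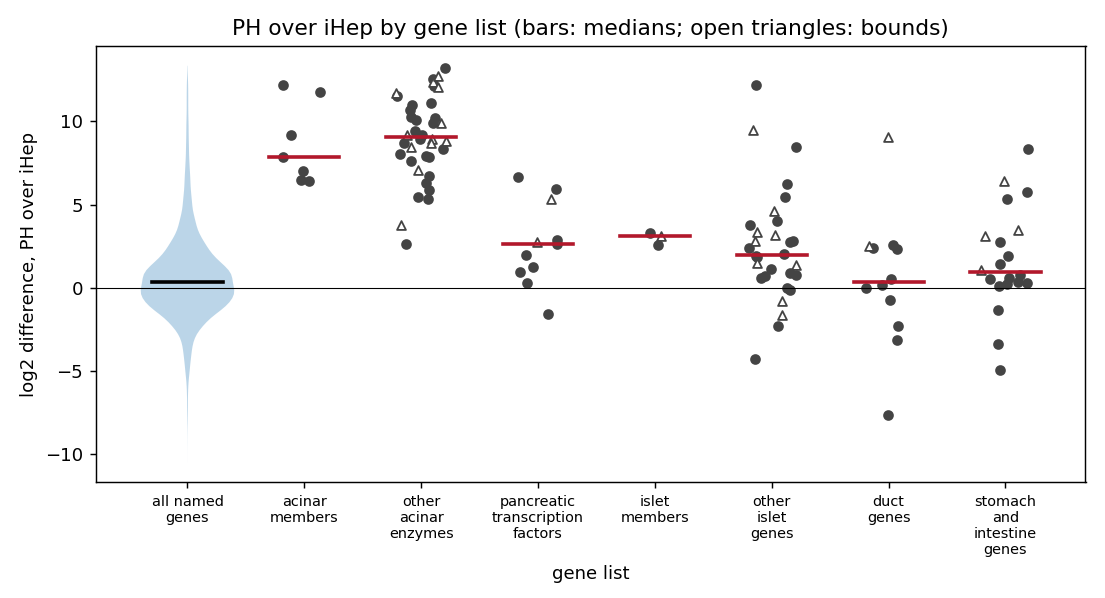
Log2 difference of PH over iHep for each measured gene of the lists, with the distribution of all named genes on the left; bars are medians and open triangles bounds. Medians are 7.86 and 9.07 for the acinar lists, 3.12 and 1.98 for the islet lists and 0.31 for all genes.

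Neighbouring epithelia were read for comparison. The 12 duct genes divided into 5 higher, 3 lower and 4 within 2-fold in PH over iHep (median 0.34). Of all genes compared 36.1% were higher and 23.4% lower there. The secreted trefoil peptide Tff2 was at least 532-fold higher in PH, while the water channel Aqp5 was 205-fold lower and the ductal chloride channel Cftr lay within 1.03-fold. Of stomach and intestine genes 10 of 20 were higher and 3 lower (median 0.91), beside the same 36.1% and 23.4% of all genes. The gastric markers Gkn2 and Cblif and the intestinal factor Cdx2 were not above background on any array, whereas the gastric genes Gkn1, Gkn3, Pgc, Atp4a, Atp4b and Muc5ac were in PH, with Gkn1 8.44-fold and Muc5ac 11.8-fold above MF. Fabp2, the intestinal fatty acid-binding protein, was 53.0-fold higher in PH than in iHep, and Vil1, a brush border protein, 30.5-fold lower.

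Genes were ranked by how near their pair of differences lay to the acinar medians, which rest in part on MF readings of Pnlip and Cpa1 that were not above background. With iHep over MF at 1.02 and PH over MF at 11.88, as read, the nearest of 17233 other genes above background in PH were Acsm1, Cyp4f14, Serpinc1, Hao1, Keg1, Azgp1, Ugt2b38 and H2-T3, at distances from 0.27 to 0.46 on the log2 scale. Serpinc1, antithrombin, differed by 0.77 and 12.07, and Hao1, a peroxisomal oxidase, by 1.09 and 11.57. They were picked for this likeness, so it is a description.

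Processing changed the size of these differences more than their direction. The acinar median in PH over MF was 8.82 under normexp, and that of PH over iHep lay between 6.97 and 7.87 in all settings. The authors' processed values covered 8 of the 10 members, with Pnlip at 4.41, 5.43 and 16.97 and Ins1 at 6.22, 7.43 and 9.55 log2 units in MF, iHep and PH in the authors' deposited table. In every setting run that gave a value the acinar median stood above the islet median in PH over MF and in PH over iHep. With 1 probe per member, the settings that take the mean or the lowest probe repeat the main medians.

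**Figure D5:**
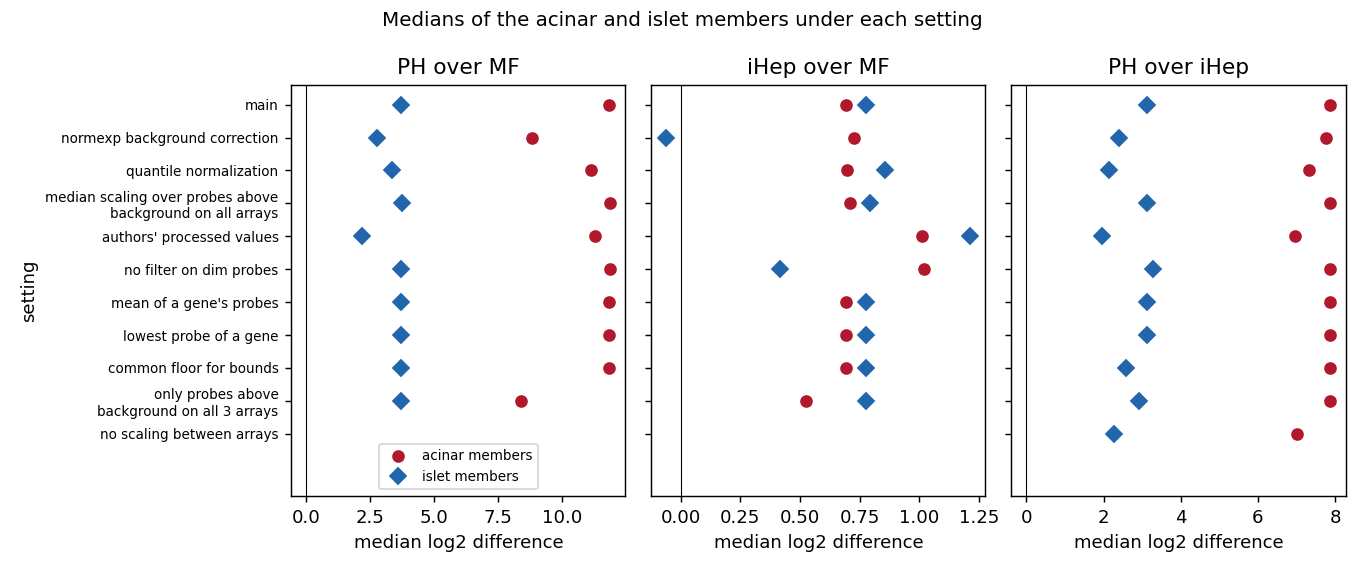
Median log2 difference of the acinar members (circles) and islet members (diamonds) under the main setting and each alternative that gives a value. In PH over MF and PH over iHep the circles lie to the right of the diamonds in each setting, while in iHep over MF their order changes.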

How the data were processed

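Cy3-labelled RNA of MF, iHep and PH was measured on 1 array per pool of 5 samples; per the labels' protocols a blood RNA kit was used and globin message was reduced. The scanner files as deposited give linear spot intensity, background-subtracted and detrended within each array by Agilent Feature Extraction 11.0.1.1, per the file headers (9.1 in the submitters' processing notes). The authors' table gives log2 values of 26049 probes, with scale, centring and normalization unstated.

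Log2 processed intensity was set against each array's 75th percentile over spots other than controls. Outlier spots were left out (190, 230 and 383 of 43020 on MF, iHep and PH). A probe counted as above background when more than 0.5 of its spots did; none was saturated. Of 39429 probes, 27234 were named through RefSeq accessions (GRCm38.p6), and the probe with the highest mean stood for a gene. Floors for bounds were -6.30, -7.32 and -6.89. Steps were tested on simulated data.

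Members, lists, motifs and the rule for named genes were chosen with earlier results of these data known. The rule took all members, listed hormones and transcription factors, up to 6 genes of a list with the largest differences in PH over MF and 3 in iHep over MF, and the 8 genes of nearest pattern. Cckar, Cftr, Chga, Clps, Erp27, G6pc2, Gp2, Pcsk1, Pnliprp1, Slc30a8, Sycn, Zg16, Cblif, Gkn1, Gkn2, Gkn3, Pgc, Atp4a, Atp4b, Muc5ac, Ttr, Slc2a2 and the trypsin genes beyond the rule were chosen after their values were seen, as was the 64-fold size. Some genes that the rule names are not reported here. Alternatives were normexp (limma 3.58.1 in R 4.3.3, offset 50, on median signals), 2 other scalings, the authors' values, other filters, probes, floors and thresholds (4-fold, 1.5-fold), and, chosen after seeing the data, PH over iHep without scaling.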

Additional observations from a re-analysis of the deposited data

How the results depend on the processing

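Every member difference that an alternative gave in PH over MF (82 values) and in PH over iHep (93 values) stayed at least 2-fold higher in PH. In iHep over MF 33 of 73 were at least 2-fold higher and 64 were above 0. Not all of these values are separate checks. Each member has 1 probe, so the mean and the lowest probe repeat the main value. The common floor is that of MF, so it too repeats the main value in PH over MF. Normexp gave no Gcg difference in PH over MF. A value is taken to have moved when it shifts by more than the pooled SD between probes, a count when it changes by more than 1.5 times.

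With only probes above background on all 3 arrays, which 5 members pass, fewer genes were compared. Members higher then numbered 5 in PH over MF, 5 in PH over iHep and 2 in iHep over MF, and other acinar enzymes 13, 13 and 5. Other islet genes numbered 6 and 7 in PH over MF and PH over iHep. Of the acinar members this set leaves out Pnlip, Cpa1, Try4 and Try5, whose PH over MF values were the largest, 11.84 to 12.86. It keeps Ctrb1, Cel and Cela1, at 7.69 to 9.05. The acinar median in PH over MF was then 8.39 and its gap to the islet median 4.69. Under normexp that median was 8.82 and the gap 6.07 in PH over MF and 0.78 in iHep over MF; other islet genes higher in PH over MF numbered 8, members higher in iHep over MF 2, other acinar enzymes 0 and other islet genes 3. The Ins1 difference and the median of stomach and intestine genes in iHep over MF turned to -0.38 and -0.80. In the authors' values the islet median was 2.19 in PH over MF and 1.96 in PH over iHep, and other islet genes higher numbered 5, 3 and 5 in PH over MF, iHep over MF and PH over iHep, other acinar enzymes 25 in PH over iHep; medians of other islet genes and of duct genes in PH over MF turned to -0.30 and -0.21. With no filter on dim probes 15 other acinar enzymes and 12 other islet genes were higher in iHep over MF, with the lowest probe 4 islet genes, and at 4-fold 2 members, 1 other acinar enzyme and 1 other islet gene. Apart from the smaller set of probes and the threshold, the cause was not tested. Without scaling, PH over iHep fell by 0.85 on the log2 scale for each gene. No paired analysis was possible because each group has 1 array. Signal near background limits Gcg, the MF readings of Pnlip, Cpa1, Try4 and Try5, and the iHep readings of Cela3a, Gp2, Reg1 and Reg2.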
